A study of Mus musculus with 12 samples.

Results

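Pomp, Slc46a3, Sirt4, Pxn, Micu2 and Usp25 are 6 mouse genes picked as carrying the strongest peaks of tagged GZF1 at cellular genes in embryonic stem cells. They were chosen by their anti-FLAG signal in both lines analysed here, Cas9 and RGM, so their anti-FLAG values are a description. The input may have entered the choice as well, so their input values are also given as a description. For each gene the 1 kb bins over the gene body with 5 kb on each side were taken from the deposited table, and the peak bin was the one highest in the Cas9 anti-FLAG library. The 6 genes of 47042 annotated autosomal genes have 341 such bins and 4 peak bins among 2462755 autosomal bins, since Pomp and Slc46a3 share 1 peak bin and so do Sirt4 and Pxn. In each of the 4 places the bin highest in the RGM anti-FLAG library was the same bin. Pomp and Slc46a3, and likewise Sirt4 and Pxn, are therefore not separate observations.

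GZF1 carries a BTB domain and a row of zinc fingers, recognises DNA sequence, and is known as a transcriptional regulator that the growth factor GDNF induces. Chromatin immunoprecipitation reads the place of such a protein on DNA from the pile-up of sequenced fragments, and a gene near a pile-up is not thereby shown to be controlled by it. Pomp encodes the chaperone that assists the maturation of the 20S proteasome. Slc46a3 encodes a transporter of the lysosomal membrane, Sirt4 a sirtuin of the mitochondrial matrix, Pxn the focal adhesion scaffold paxillin, Micu2 a regulatory subunit of the mitochondrial calcium uniporter and Usp25 a deubiquitinase.

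All cells were mouse embryonic stem cells, fixed and digested with micrococcal nuclease. The tagged protein was read with anti-FLAG in 2 clones that overexpress ectopic Gzf1-Flag, clone 35 of the Cas9-GFP line (70.0 M reads) and clone 56 of the 129xCAST line RGM (67 M reads). The endogenous protein was read with anti-GZF1 in wild-type Cas9 (60.6 M reads), wild-type RGM (21.8 M), a Gzf1 knockout of Cas9 (85.9 M) and a Cas9 control (94.2 M) whose difference from the wild type the labels do not state. Acetylated H3K27, found at active regulatory DNA (40.8 M reads), and input chromatin (10.1 M) came from the Cas9 line. Each of these 8 groups is 1 library, so no test between groups was run, and each tagged line is 1 clone. The 4 other libraries of the series, anti-FLAG in V65 cells and in allele-specific RGM samples with and without the tag, were not analysed here, so no anti-FLAG background without the tag is given.

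Values below are read densities, in which the reads of a bin are divided by that library's autosomal mean. Their 95% exact Poisson intervals cover only counting error. Local background is the median density of bins up to 10 kb away in both directions, leaving out the bin and its 2 neighbours. A bin was called at 2-fold or more over local background after 0.5 was added to both densities. Over the body of the targeted gene Gzf1 the knockout had a density of 0.688 and the control 0.903, and 1 kb bins cannot show a small edit or the protein. Density of H3K27ac over input at 10 pluripotency genes had a median of 1.10, against 1.08 at 6 feeder genes and 1.08 at 8 genes of differentiated tissues, so this library does not separate the labelled cell type from others.

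The peaks lay 6.20 to 83.8 kb from the starts listed for 5 of the genes, and Pxn has no listed start. All positions are mm10. The peak of Pomp and Slc46a3 (chromosome 5, 147874001 to 147875000) lies inside Pomp (147860628 to 147875784, plus strand), 1.28 kb from the downstream edge measured at the bin centre, and 897 bp beyond the downstream edge of Slc46a3 (147875897 to 147894861, minus strand). The 2 genes run towards each other, so the peak sits where they meet and is 13.9 kb from the start of Pomp and 20.3 kb from that of Slc46a3. The Micu2 peak (chromosome 14, 57915001 to 57916000) is 280 bp past the downstream edge of Micu2 (57916280 to 57999296, minus strand) and 83.8 kb from its start.

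The peak of Sirt4 and Pxn (chromosome 5, 115490001 to 115491000) overlaps the upstream edge of the Sirt4 gene model (115478006 to 115490264, minus strand) and is 970 bp from the body of Pxn (115491970 to 115555987). The Sirt4 start listed with a promoter is at 115484297, 6.20 kb from the bin centre. The Usp25 peak (chromosome 16, 77041001 to 77042000) is inside the body of Usp25 (77013684 to 77116783, plus strand), 27.4 kb downstream of the listed start. Whether a bin is exonic or intronic was not read, because the annotation used here gives gene spans only. The map of the gene bodies shows these distances.

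**Figure D1:**
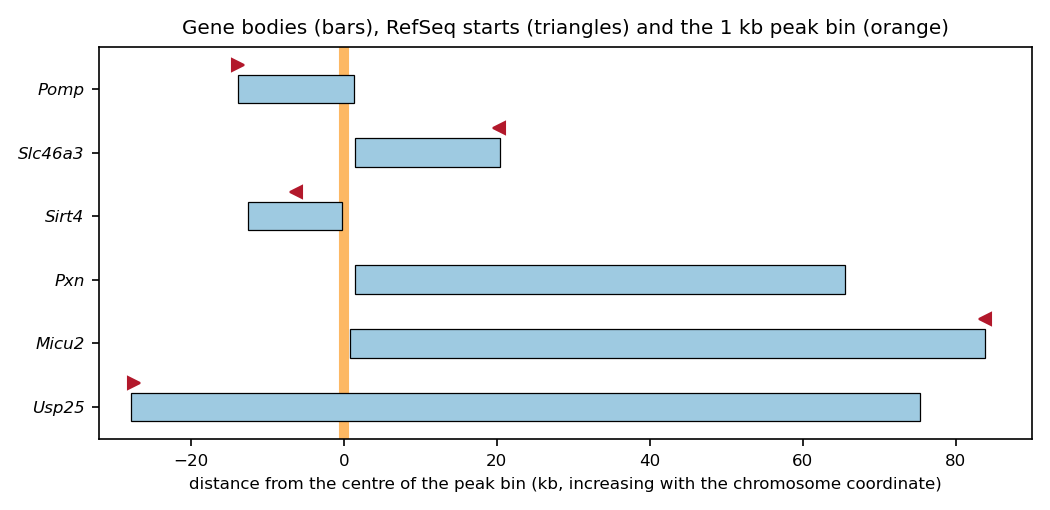
Gene bodies (bars), listed RefSeq starts (triangles pointing along the strand) and the 1 kb peak bin (orange band) by distance from the bin centre in kb. The starts of the 5 genes with a listed promoter lie 6.20 to 83.8 kb from the band, and Pxn is drawn without a start.

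Promoter sequences of 4 of the genes are given because their starts, unlike the peaks, can be read as sequence, and because anti-GZF1 signal at these starts differs between the genes as set out further on. They are RefSeq sequences of GRCm38.p6, 5′ to 3′ on the strand of the gene, from 250 bases before to 50 after the start. Capitals mark the word TGCGC or its reverse complement GCGCA, the word with which the known GZF1 recognition sequence begins, searched on both strands. The first 3 are starts with a called RGM anti-GZF1 bin, and that of Sirt4 is a start with no call in any library.
Slc46a3, chr5:147894766-147895065, minus strand: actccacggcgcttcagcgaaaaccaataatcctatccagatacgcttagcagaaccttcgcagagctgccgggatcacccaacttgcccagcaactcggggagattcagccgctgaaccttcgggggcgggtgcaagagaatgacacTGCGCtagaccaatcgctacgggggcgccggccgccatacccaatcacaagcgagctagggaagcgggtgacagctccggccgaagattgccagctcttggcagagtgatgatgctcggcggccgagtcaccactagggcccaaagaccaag
Micu2, chr14:57999213-57999512, minus strand: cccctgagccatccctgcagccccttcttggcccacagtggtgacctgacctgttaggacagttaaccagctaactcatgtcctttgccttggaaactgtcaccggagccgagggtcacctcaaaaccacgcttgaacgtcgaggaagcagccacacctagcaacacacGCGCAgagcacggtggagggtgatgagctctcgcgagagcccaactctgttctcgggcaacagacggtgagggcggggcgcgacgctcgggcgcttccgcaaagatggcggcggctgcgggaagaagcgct
Usp25, chr16:77013819-77014118, plus strand: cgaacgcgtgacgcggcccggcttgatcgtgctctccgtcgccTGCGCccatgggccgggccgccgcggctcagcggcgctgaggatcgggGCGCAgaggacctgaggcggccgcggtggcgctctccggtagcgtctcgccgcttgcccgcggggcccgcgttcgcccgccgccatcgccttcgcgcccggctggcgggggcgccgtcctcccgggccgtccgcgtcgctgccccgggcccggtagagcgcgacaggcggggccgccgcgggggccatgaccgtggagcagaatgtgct
Sirt4, chr5:115484248-115484547, minus strand: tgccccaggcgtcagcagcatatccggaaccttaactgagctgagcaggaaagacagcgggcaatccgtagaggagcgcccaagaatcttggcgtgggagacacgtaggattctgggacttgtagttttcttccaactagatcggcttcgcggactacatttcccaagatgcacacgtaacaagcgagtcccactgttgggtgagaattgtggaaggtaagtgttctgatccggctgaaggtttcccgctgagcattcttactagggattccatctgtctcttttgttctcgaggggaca

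The word occurs 1 time each in the promoters of Slc46a3, Micu2 and Pomp, 2 times in that of Usp25 and 0 times in that of Sirt4. Of 31396 autosomal promoters of the same length 30.6% hold it. The Pomp promoter, not printed here, holds the word although its start bin was not called with RGM wild-type anti-GZF1 (1.87-fold). Word and call thus do not go together at all 5 genes. The promoters of the 5 genes have 52.0 to 79.0% G and C and 15 to 54 CG dinucleotides, against medians of 53.0% and 7 over all autosomal promoters. These counts describe 300 bases at each start and not the DNA under the peaks, which was not read here.

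The bin shared by Pomp and Slc46a3 had the highest anti-FLAG density of the 4. It held 506.65 anti-FLAG reads in Cas9 and 378.7 in RGM, densities of 18.6 (17.0 to 20.3) and 14.3 (12.9 to 15.8). Wild-type anti-GZF1 gave 113.0 reads in Cas9 and 37.45 in RGM, densities of 4.79 (3.95 to 5.76) and 4.35 (3.07 to 5.98). With the same antibody the knockout had 25 reads, a density of 0.759 (0.491 to 1.12), and the control 42.15 reads, a density of 1.18 (0.850 to 1.59). Both wild types thus lay below both tagged lines and above the knockout and the control, with no overlap of intervals between these 3 tiers. H3K27ac had a density of 1.63 (1.06 to 2.39), and the input 0.764 from 3 reads.

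Against the local background the tagged peak of Pomp and Slc46a3 was 7.04-fold (6.45 to 7.66) in Cas9 and 6.12-fold (5.54 to 6.74) in RGM. Wild-type anti-GZF1 was 2.17-fold (1.83 to 2.57) in Cas9 and 2.26-fold (1.66 to 3.02) in RGM. The knockout stood at 0.745-fold (0.587 to 0.959), below the bins around it, and the control at 1.01-fold (0.809 to 1.25). The peak was narrow: the bins before and after it had densities of 6.77 and 6.96 in Cas9 anti-FLAG and 5.24 and 4.04 in RGM anti-FLAG, each less than 0.5 of the way from background to the peak.

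The Usp25 peak rose out of the lowest surroundings and had the highest fold. It held 381.15 anti-FLAG reads in Cas9 and 339.55 in RGM, densities of 14.0 (12.6 to 15.5) and 12.8 (11.5 to 14.3), with overlapping intervals. Wild-type anti-GZF1 had 90.15 reads in Cas9 and 26.6 in RGM, densities of 3.82 (3.07 to 4.70) and 3.09 (2.03 to 4.51), also with overlapping intervals. The knockout had 21.1 reads, a density of 0.641 (0.397 to 0.978), and the control 42.8 reads, a density of 1.20 (0.865 to 1.61). H3K27ac at 1.32 (0.819 to 2.02) did not differ from the control beyond the intervals, and the input had 0.764 from 3 reads.

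Local background at Usp25 was 1.29 and 1.24 in Cas9 and RGM anti-FLAG, which made the tagged peak 8.09-fold (7.32 to 8.91) and 7.66-fold (6.90 to 8.49). Wild-type anti-GZF1 was 2.68-fold (2.21 to 3.22) in Cas9 and 3.0-fold (2.11 to 4.18) in RGM, against 0.904-fold in the knockout and 1.22-fold in the control. The following bin was nearly as high, with 12.1 in Cas9 and 9.66 in RGM anti-FLAG. With wild-type anti-GZF1 that following bin had 4.18 (3.39 to 5.09) in Cas9 and 3.72 (2.54 to 5.25) in RGM. These values were above those of the peak bin, with overlapping intervals in both lines.

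The Micu2 peak had a shoulder on the side away from the gene. It held 442.9 anti-FLAG reads in Cas9 and 290.1 in RGM, densities of 16.3 (14.8 to 17.9) and 11 (9.74 to 12.3). The preceding bin, farther from Micu2, had 11.7 and 8.51, and the following bin, which holds the gene edge, 3.93 and 2.75. Wild-type anti-GZF1 had 110.35 reads in Cas9 and 47.5 in RGM, densities of 4.68 (3.85 to 5.64) and 5.52 (4.06 to 7.32). The shoulder was present there as well, at 3.67 in Cas9 and 5.64 in RGM, where it was as high as the peak bin.

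At Micu2 the knockout had 44.0 reads, a density of 1.34 (0.971 to 1.79), and the control 72.6 reads, a density of 2.03 (1.59 to 2.55). H3K27ac had 2.41 (1.71 to 3.30) and the input 0.764 from 3 reads. The tagged peak was 5.95-fold (5.42 to 6.51) over local background in Cas9 and 4.94-fold (4.41 to 5.52) in RGM. Wild-type anti-GZF1 was 2.11-fold (1.77 to 2.5) and 2.41-fold (1.82 to 3.13) in the same 2 lines, the knockout 0.908-fold and the control 1.16-fold.

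The bin shared by Sirt4 and Pxn was the weakest of the 4 and stood in the densest surroundings. It held 323.0 anti-FLAG reads in Cas9 and 196.75 in RGM, densities of 11.9 (10.6 to 13.2) and 7.43 (6.43 to 8.55). Wild-type anti-GZF1 had 103.25 reads in Cas9 and 50.65 in RGM, densities of 4.38 (3.57 to 5.31) and 5.88 (4.38 to 7.74). The interval of RGM wild-type anti-GZF1 overlapped that of RGM anti-FLAG, which it did at none of the other 3 peaks. The knockout had 52.0 reads, a density of 1.58 (1.18 to 2.07), and the control 76.95 reads, a density of 2.15 (1.70 to 2.69). H3K27ac had 1.89 and the input 0.255 from 1 read.

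The tagged peak of Sirt4 and Pxn was 3.81-fold (3.42 to 4.23) over local background in Cas9 and 2.92-fold (2.55 to 3.33) in RGM. Wild-type anti-GZF1 reached 1.39-fold (1.16 to 1.66) in Cas9, where the background was 3.0, and 2.05-fold (1.57 to 2.65) in RGM. In RGM the preceding bin, with a density of 6.08, was slightly higher than the peak bin. The knockout was at 0.944-fold and the control at 1.3-fold (1.08 to 1.57).

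**Figure D2:**
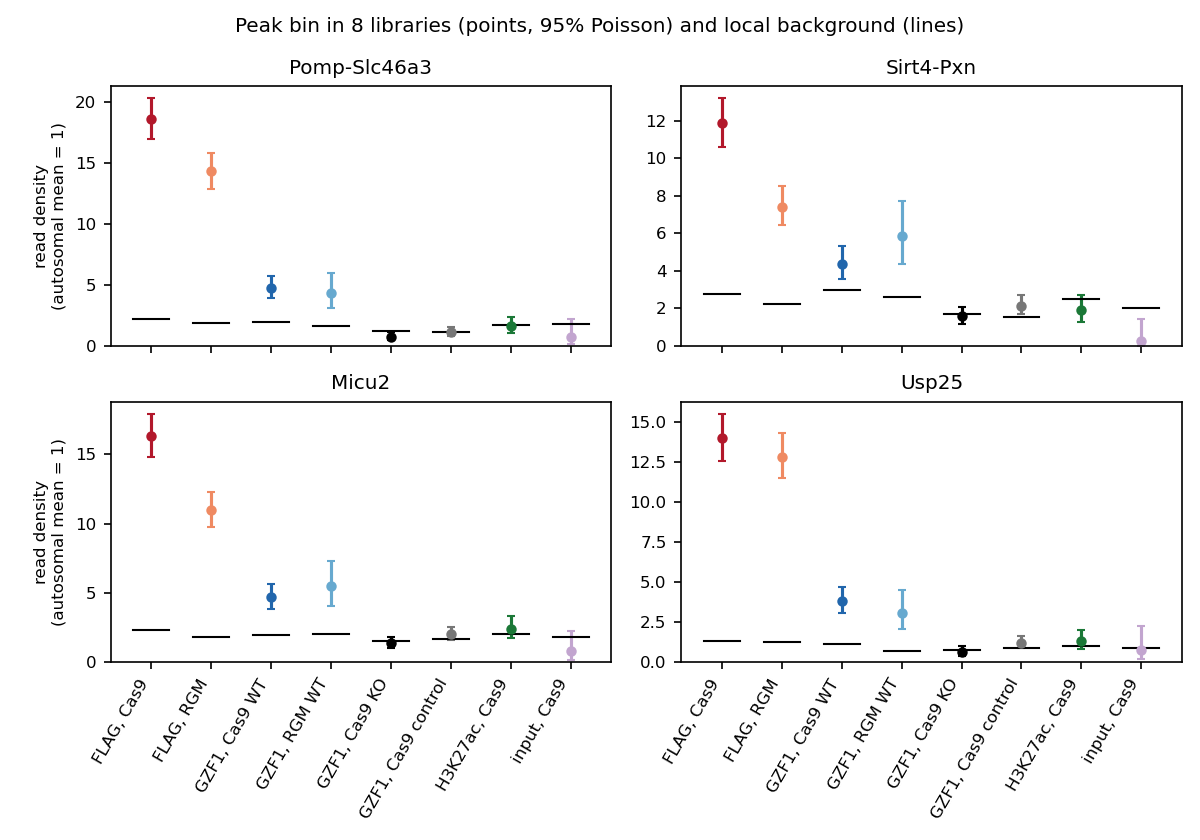
Read density in the 4 peak bins (points, with 95% exact Poisson intervals; autosomal mean of each library = 1) in 8 libraries, with the local background of each as a line. Anti-FLAG points stand highest in every panel, wild-type anti-GZF1 follows at 3.09 to 5.88, and the knockout is lowest of the ChIP libraries at 0.641 to 1.58.

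**Figure D3:**
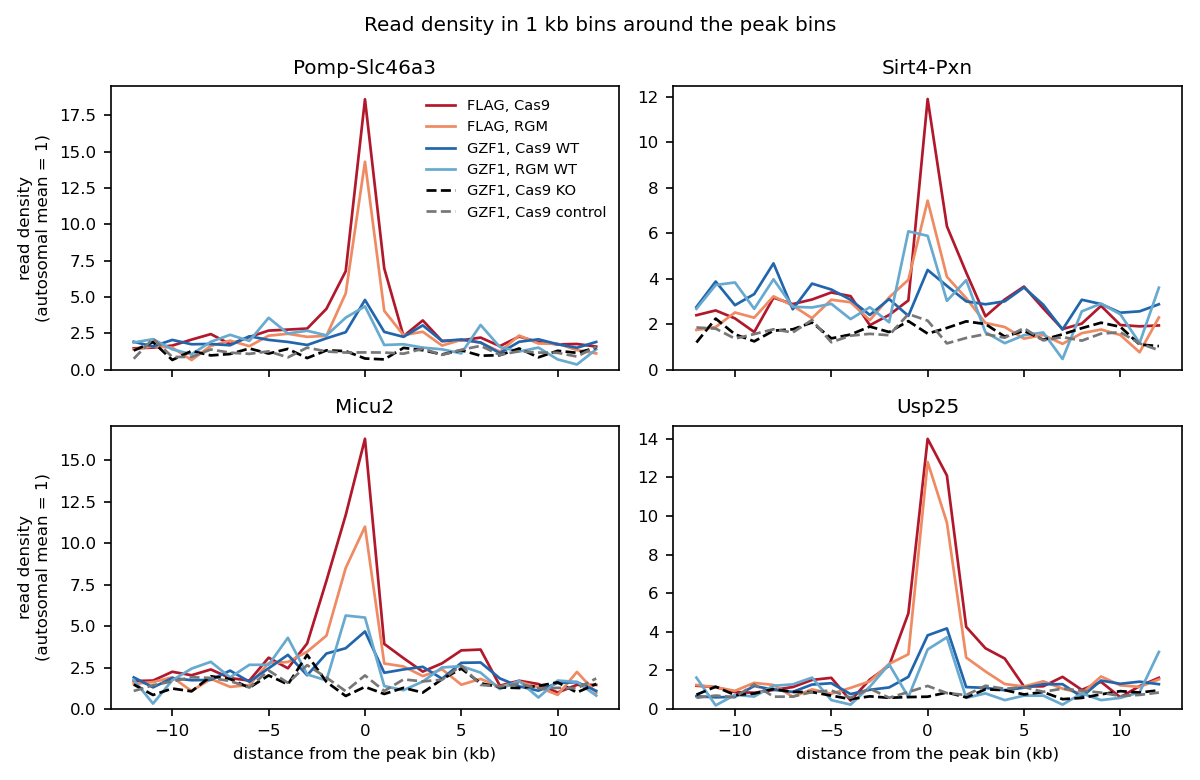
Read density (autosomal mean = 1) by distance from the peak bin in kb, for anti-FLAG and anti-GZF1 libraries (dashed lines are the knockout and the control). The anti-FLAG peaks are 1 or 2 bins wide above the middle of their height, and at 0 kb the knockout is at 0.745- to 0.944-fold over its local background with 0.5 added to both densities.

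How strong the 4 places were depends on what they were set against. By values over input these places ranked at or near the top: among 1957480 bins with an input density between 0.25 and 3, ranked on the lower of the 2 lines, 0 bins exceeded the peak of Pomp and Slc46a3, 3 that of Usp25, 4 that of Sirt4 and Pxn and 8 that of Micu2. Their inputs of 1 to 3 reads raise such values and may belong to the choice of the genes. Over local background, which does not use the input, 9 of 20665 autosomal protein-coding genes had a higher value of the lower line than Usp25, 28 than Pomp and Slc46a3, 52 than Micu2 and 194 than Sirt4 and Pxn. The highest was Vat1l, at 10.5-fold in Cas9 and 11.9-fold in RGM. Of all autosomal bins 0.296% were called with anti-FLAG in Cas9 and 0.639% in RGM, and 0.182% in both. All 4 peaks were called in both, which the choice of the genes fixes.

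The anti-GZF1 antibody was not used to choose the genes. With it 3 of 4 peak bins were called in Cas9 wild type, where 0.565% of all autosomal bins were, and 4 of 4 in RGM wild type, where 2.61% were; 3 of 4 were called in both, where 0.434% were. Sirt4 with Pxn was the peak not called in Cas9. The knockout had 0 of 4, with 0.0535% of all bins called, and the control 0 of 4, with 0.0477%. The median fold of the 4 bins was 2.14 in Cas9 wild type, 2.33 in RGM wild type, 0.906 in the knockout and 1.19 in the control, against 1.00 over all autosomal bins in each of these libraries. The Cas9 calls lay close to the threshold: with a pseudocount of 1 only Usp25 was called, and averaged over 3 bins 1 peak was called in each wild type. With that pseudocount 0.249% of all autosomal bins were called in Cas9 wild type. The RGM wild-type values rest on 26.6 to 50.65 reads a bin.

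Other bins called with anti-FLAG in both lines also carried anti-GZF1 signal. Of 4468 such bins away from the 4 peaks 74.7% were called in Cas9 wild type and 82.2% in RGM wild type. H3K27ac was called in 64.1% of them with a median of 2.23-fold, and in 0 of the 4 peaks, which ranged from 0.793- to 1.21-fold (0.661% of all autosomal bins were called). The input was called in 56.3% of them, and in 0 of the 4 peaks, which ranged from 0.297- to 0.908-fold (7.86% of all bins were called). Among the 152 of these bins at 4-fold or more with anti-FLAG in both lines, H3K27ac was called in 43.4% with a median of 1.8-fold and the input in 49.3%. A start with a listed RefSeq promoter lay in 37.4% of the 4468 bins, in 1.11% of all autosomal bins and in 0 of the 4 peak bins. With neighbouring bins counted too, a listed start was found for 46.2%, 3.18% and 0 of 4. The count of 0 is thus close to the share of all autosomal bins. That list has no entry for Pxn, whose near edge is in the bin after the Sirt4 and Pxn peak, nor for the small nuclear RNA genes Gm24407, which lies inside this peak bin, and Gm24265, in the bin before it. The upstream edge of the Sirt4 gene model is in the peak bin as well, so an unlisted start there is not covered by the count of 0. The choice of the genes may bear on the input values of the 4 peaks, and its part in their H3K27ac values was not tested.

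After scaling, the knockout library held fewer anti-GZF1 reads than the control library at all 4 peaks. The ratio of scaled reads, with a 95% exact binomial interval that compares these 2 libraries only, was 0.535 (0.299 to 0.914) at Usp25 and 0.658 (0.440 to 0.965) at Micu2, both wholly below 1. It was 0.644 (0.378 to 1.09) at Pomp and Slc46a3 and 0.734 (0.506 to 1.06) at Sirt4 and Pxn, with intervals that hold 1. Over 3 bins it was 0.731 (0.532 to 0.999) at Usp25, 0.724 (0.557 to 0.939) at Micu2, 0.776 (0.585 to 1.02) at Pomp and Slc46a3 and 0.965 (0.785 to 1.18) at Sirt4 and Pxn. In the bin after the Usp25 peak the knockout had a density of 0.862 (0.575 to 1.24) and the control 0.829 (0.558 to 1.19). With wild-type anti-GZF1 that bin was above the peak bin, with overlapping intervals. The median ratio over 2392418 autosomal bins with 10 or more control reads was 0.998, and 6.85% of these bins had an interval wholly below 1. Among 321 other bins of the same gene windows 18 (5.61%) did, and their median ratio was 0.962. No peak reached a ratio of 0.5 or less, as 2.87% of all bins did. From 4.14% of autosomal bins at Usp25 to 18.5% at Sirt4 and Pxn had a lower ratio than the peak.

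The control itself had no called peak. The control was at 1.01- to 1.3-fold at the 4 bins, with 0.5 added to both densities as above, where Cas9 wild type with the same antibody was at 1.39- to 2.68-fold. This was not particular to the 4 peaks. At the 4468 other bins called with anti-FLAG in both lines the control had a median of 1.33-fold, with 6.47% called. The knockout had 1.3-fold and 6.58% there, and Cas9 wild type 2.41-fold and 74.7%. Other anti-FLAG bins of both lines, 4465 with enough control reads, had a median ratio of knockout to control of 0.984, and 7.55% of them had an interval wholly below 1.

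Cas9 wild type exceeded the Cas9 control at all 4 peaks with the same antibody. The ratio was 4.07 (2.84 to 5.96) at Pomp and Slc46a3, 3.19 (2.18 to 4.68) at Usp25, 2.31 (1.68 to 3.12) at Micu2 and 2.04 (1.5 to 2.76) at Sirt4 and Pxn. All 4 intervals lay above 1, as did those of 11.6% of autosomal bins, and all 4 ratios were at 2 or more, as were 5.29% of bins. Among the 321 other bins of the gene windows the median ratio was 1.36 and 36.8% had an interval above 1. The excess was not particular to the 4 peaks. Of 4465 other bins called with anti-FLAG in both lines 61.1% had an interval above 1, with a median ratio of 1.78. Of the 152 at 4-fold or more in both lines 65.1% did, with a median of 2.38. The surrounding 1 Mb differed in the same direction at 3 of the places, with ratios of 1.55 around Pomp and Slc46a3, 1.70 around Sirt4 and Pxn, 1.15 around Micu2 and 0.984 around Usp25. Divided by it, the peak ratio was 2.63 (1.84 to 3.86), 1.20 (0.880 to 1.62), 2.0 (1.46 to 2.71) and 3.25 (2.22 to 4.75) in that order, so that of Sirt4 and Pxn no longer lay above 1.

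**Figure D4:**
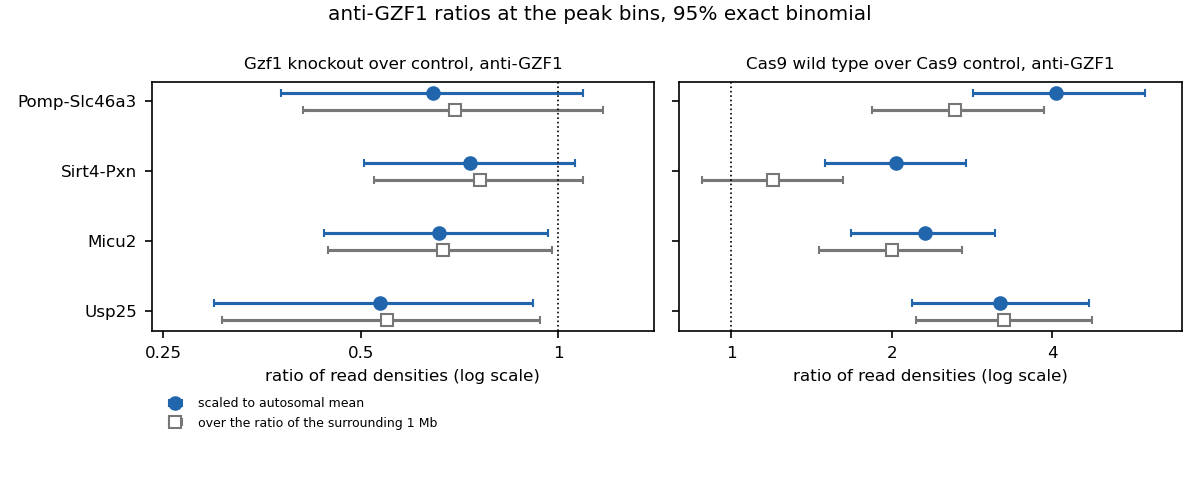
Ratio of anti-GZF1 read densities (log axis) at the 4 peak bins with 95% exact binomial intervals, knockout over control on the left and Cas9 wild type over control on the right, scaled to the autosomal mean (filled) or also divided by the surrounding 1 Mb (open). The 4 filled ratios run from 0.535 to 0.734 on the left and from 2.04 to 4.07 on the right.

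The tagged peaks were compared between the lines as a description, since Cas9 is also the library that placed the peak bin. The ratio of Cas9 to RGM anti-FLAG was 1.60 (1.33 to 1.91) at Sirt4 and Pxn, 1.49 (1.28 to 1.73) at Micu2 and 1.3 (1.14 to 1.49) at Pomp and Slc46a3. At Usp25 it was 1.09 (0.940 to 1.27). Divided by the ratio of the surrounding 1 Mb it was 1.51 (1.26 to 1.81) at Sirt4 and Pxn, 1.36 (1.17 to 1.59) at Micu2, 1.05 (0.920 to 1.21) at Pomp and Slc46a3 and 1.01 (0.867 to 1.17) at Usp25, so only the first 2 intervals stayed above 1. Over 3 bins and without that division it was 1.37 (1.21 to 1.56), 1.43 (1.29 to 1.60), 1.37 (1.24 to 1.52) and 1.23 (1.11 to 1.36) in the same order, each wholly above 1. With wild-type anti-GZF1 the ratio of Cas9 to RGM was 0.744 (0.522 to 1.05) at Sirt4 and Pxn, 0.848 (0.591 to 1.20) at Micu2, 1.10 (0.763 to 1.66) at Pomp and Slc46a3 and 1.24 (0.784 to 1.95) at Usp25, and each of these intervals holds 1. At Sirt4 and Pxn it was 0.672 (0.472 to 0.951) after division by the 1 Mb ratio and 0.696 (0.560 to 0.868) over 3 bins, both wholly below 1.

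The peak bin is by definition the highest Cas9 anti-FLAG bin of its window, so lower anti-FLAG values at the starts of the same genes are a description. Tagged GZF1 was at 1.10- to 1.89-fold in the start bins in Cas9 and at 0.810- to 2.51-fold in RGM, against 3.81- to 8.09-fold and 2.92- to 7.66-fold at the peaks. With RGM wild-type anti-GZF1 the order turned round at Micu2, where the start bin was 4.62-fold (density 6.50, 4.91 to 8.44) and the peak bin 2.41-fold (density 5.52, 4.06 to 7.32). The intervals of these densities overlap, and the start lies in a lower background of 1.02. In Cas9 wild type the order did not turn round at Micu2, with 1.83-fold at the start, not called, and 2.11-fold at the peak. At Slc46a3 the start bin was 3.36-fold in RGM and 2.55-fold in Cas9 wild type, against 2.26- and 2.17-fold at the peak. The input was also raised at this start, at 2.92-fold.

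The Usp25 start bin was 2.63-fold in RGM wild-type anti-GZF1 and 1.68-fold in Cas9. The bin before it (77013001 to 77014000), which holds the lower edge of the gene, had a density of 6.14 in RGM wild type, 4.60-fold, and was the highest bin of the Usp25 window outside the peak in that library. H3K27ac was at 2.52-fold in that bin. The Pomp start bin was 1.87- to 1.96-fold with anti-FLAG and wild-type anti-GZF1 in both lines, and there the knockout (1.52-fold), the control (1.66-fold), H3K27ac (2.53-fold) and the input (1.97-fold) were raised as well. The Sirt4 start was at 0.810- to 1.3-fold in all 7 ChIP libraries.

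**Figure D5:**
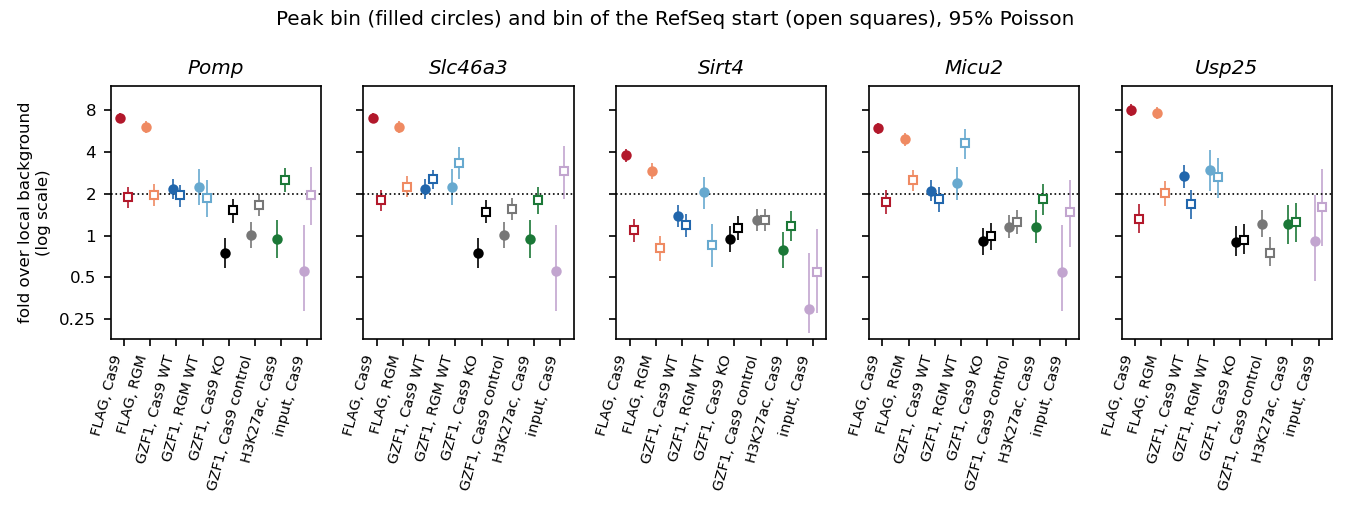
Fold over local background (log axis, dotted line at the call threshold of 2, 95% exact Poisson intervals) in the peak bin (filled circles) and in the bin of the listed start (open squares) of 5 genes in 8 libraries. Anti-FLAG is higher at the peak than at the start in all 5 panels, as the choice of the peak bin fixes, and RGM wild-type anti-GZF1 is higher at the start of Micu2 (4.62) than at its peak (2.41). The filled points of Pomp and Slc46a3 are the same bin.

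The rest of each gene window is given beside its peak. More than 2 kb from the peak bin the mean Cas9 anti-FLAG density was 2.14 over 21 bins of Pomp, 2.22 over 25 bins of Slc46a3, 2.72 over 18 bins of Sirt4, 2.20 over 70 bins of Pxn, 1.57 over 89 bins of Micu2 and 1.05 over 109 bins of Usp25. In RGM these means were 1.82, 1.94, 2.44, 2.04, 1.39 and 1.04. The order of the genes in mean density was thus not that of their peaks, since Usp25 was lowest. Of these bins 0 to 2 per gene were called with anti-FLAG.

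Genes of the same pathways were read from lists that hold 64 autosomal genes besides the 6. For each gene the highest bin of its window was taken in each line. Of the 64 genes 14 (21.9%) were called with anti-FLAG in both lines, against 15.6% of all autosomal protein-coding genes (18.7% in Cas9 and 42.8% in RGM). The highest of them on the lower line was Psmg2, at 2.63-fold. Of the 14 bins 10 held a listed start. Over the 14 bins the median fold was 2.60 with H3K27ac, 1.93 in the input, 1.45 in the control and 1.56 in the knockout. At the 4 peaks these medians were 1.05, 0.552, 1.19 and 0.906. Longer genes offer more bins, with a median of 29 bins for all protein-coding genes and of 19 to 60.5 for the lists.

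Of the mitochondrial calcium genes 4 of 9 were called in both lines. They were Smdt1, an essential uniporter subunit (2.23-fold in Cas9 and 2.42-fold in RGM), Letm1, an ion exchanger of the inner membrane (2.18 and 2.64), Mcu, the pore (2.09 and 2.32), and Micu3, a paralog of Micu2 (2.0 and 2.26), while Mcur1 was lowest at 1.32 and 2.67. Of the other sirtuins 0 of 6 were called in both lines, with Sirt5 at 1.97 and 3.31, Sirt3 at 1.83 and 2.08, Sirt1 at 1.67 and 2.20, Sirt6 at 1.49 and 1.82 and Sirt2 at 1.41 and 1.57. Of the Slc46 transporters 0 of 2 were called in both, Slc46a2 at 1.48 and 1.70 and Slc46a1, the proton-coupled folate transporter, at 1.42 and 2.04.

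Of the proteasome assembly genes 1 of 6 was called in both lines, the chaperone gene Psmg2 (2.63 in Cas9 and 3.02 in RGM). Psmg4 had 1.76 and 2.18, Psmd9 1.59 and 2.35, Psmg1 1.5 and 2.15 and Psmg3 1.46 and 1.95. Of the core proteasome genes 2 of 14 were called, Psma7 (2.24 and 2.65) and Psma1 (2.17 and 2.22), with Psma3 at 1.88 and 2.32, Psmb2 at 1.84 and 2.38 and Psmb5 lowest at 1.31 and 1.32. These are subunits of the chamber that Pomp helps to assemble.

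Of the focal adhesion genes 4 of 15 were called in both lines: Zyx, which encodes zyxin (2.60 in Cas9 and 2.49 in RGM), Vcl, which encodes vinculin (2.23 and 2.44), Git2, whose product binds paxillin (2.05 and 2.69), and the adaptor gene Crk (2.03 and 2.10). Bcar1 was lowest at 1.31 and 1.51. Of the deubiquitinase genes 3 of 12 were called, Usp1 (2.24 and 2.93), Usp22 (2.11 and 2.54) and Usp47 (2.09 and 2.90), with Usp5 at 1.96 and 2.13 and Usp7 lowest at 1.58 and 1.4.

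The genes most like these 4 peaks were found by the distance between their peak bins in log2 fold over local background across the 7 ChIP libraries, with 1 library per condition. Of the 4 peaks Micu2 was nearest to their mean (distance 0.216), followed by Pomp with Slc46a3 (0.496), Usp25 (0.929) and Sirt4 with Pxn (1.26). The median over autosomal genes was 3.16. Each peak is part of that mean and was chosen on its anti-FLAG signal, so short distances of the 4 are fixed by the choice. The 10 nearest other places were those of Slc17a5 (0.460), which encodes a lysosomal sialic acid exporter, Kcnc2 (0.528), a potassium channel gene, Utrn (0.544), the utrophin gene, Prkar2b (0.604), Map9 (0.629), Naip1 (0.671), Gm31759 (0.671), Prkar1a with Fam20a (0.676), Lsamp (0.727) and Gm30604 (0.738). Prkar2b and Prkar1a encode regulatory subunits of protein kinase A. All 10 places were nearer to the mean than Usp25 and than Sirt4 with Pxn.

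Slc17a5 had 6.39- and 4.79-fold anti-FLAG in Cas9 and RGM, 2.18- and 2.70-fold wild-type anti-GZF1, 0.884-fold in the knockout and 1.11-fold in the control. Utrn had 7.46- and 4.72-fold anti-FLAG, with 0.963-fold in the knockout and 1.26-fold in the control. As at the 4 peaks, 0 of these 10 bins held a listed start or had one in a neighbouring bin. Of all autosomal bins only 3.18% had one there, so counts of 0 in so few bins are close to that share. The median H3K27ac of the 10 bins was 1.20-fold. The input ranged from 0 to 17 reads there, so a low input is not shared by all of them. Likeness in these libraries, H3K27ac among them, was the basis of the selection, and the folds are a description. The count of starts may follow from that selection too, which was not tested.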

How the data were processed

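The deposited table holds expected counts, the authors' reads per 1 kb bin not scaled to depth, with fractional reads. This unit was taken from the values, of which 100% were multiples of 0.05. Per the submitters' processing notes cutadapt, Bowtie2 2.5.4, SAMtools and deepTools were used with mm10, and the read filters are not given in the sources used here. Of 12 libraries 8 have a column and were mapped by library name, and 4 were not analysed here.

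Each library was divided by its autosomal mean (3.93 to 35.8 reads per bin). A count of 0 reads allows a density of up to 0.0839 in the control and 0.764 in the input (3 reads). Genes and promoters came from RefSeq GRCm38.p6, with 5 of 6 members matched to a promoter. Psmd10 and Paaf1 of the lists were not used here. The members and lists were chosen with earlier results of these data known. Named genes are the 6 members, in each list up to 4 highest and the lowest on the lower line, and the 10 nearest in pattern. Interval and call rules were tried on simulated Poisson counts, the model the intervals assume, so scatter beyond counting error was not tested. With 1 library per group p-values and leave-one-out fits do not exist, and sequenced reads are not independent molecules. Alternatives were pseudocounts of 0.25 and 1, backgrounds of 5 and 25 kb, the input as background, thresholds of 1.5 and 3, 3-bin sums, the RGM peak bin, median scaling, correction by 1 Mb and a background of only bins with an input density of 0.25 to 3. Python 3.11.15, numpy 2.4.6, pandas 2.3.3, scipy 1.17.1 and matplotlib 3.10.9 were used.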

Additional observations from a re-analysis of the deposited data

How the results depend on the processing

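Both anti-FLAG counts, both knockout over control counts and both Cas9 wild type over control counts stayed within 1.5 times their values under the alternatives run for them. The Cas9 wild-type anti-GZF1 count of 3 peaks became 1 with a pseudocount of 1, 1 over 3 bins and 0 at a 3-fold threshold. With a pseudocount of 1 the share of all autosomal bins called in that library was 0.249%. The RGM wild-type count of 4 became 1 over 3 bins and 0 at 3-fold, Usp25 lying just under it. Set over the Cas9 input, the count of 0 became 1 in the knockout, 2 in the control and 2 with H3K27ac, where the input has 1 to 3 reads per bin. Over the input 17.4% of all autosomal bins were called in the knockout, 17.2% in the control and 12.3% with H3K27ac. The 14 list genes called in both lines became 22 with a pseudocount of 0.25, 2 with a pseudocount of 1, 2 over the input, 46 at 1.5-fold and 0 at 3-fold. The matching shares of all protein-coding genes are not given here. The cause of these changes was not tested. Of 192 comparisons of single values with an alternative, 50 moved outside the counting interval, and 24 of these were over the input. Folds over local background crossed 1 in 11 of 160 such comparisons, 4 in the knockout, 3 in the control and 4 with H3K27ac, and in 0 with anti-FLAG or wild-type anti-GZF1. Over the input 4 did so: in the knockout Sirt4 with Pxn (0.944 became 2.75) and Micu2 (0.908 became 1.45), and with H3K27ac Sirt4 with Pxn (0.793 became 3.17) and Pomp with Slc46a3 (0.948 became 1.69). No paired analysis was possible because each group is 1 library. The input averaged 3.93 reads a bin, which limits every value set over it, and RGM wild type with 8.61 limits the anti-GZF1 values of that line.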

Other observations

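Other bins of these gene windows were raised in libraries other than anti-FLAG. At the higher-coordinate side of the Pxn window (chromosome 5, 115559001 to 115560000) the anti-FLAG, anti-GZF1 and input libraries were raised together, at 2.02- and 1.95-fold (RGM not called) with anti-FLAG in Cas9 and RGM, 2.46- and 4.03-fold with wild-type anti-GZF1, 2.01-fold in the knockout, 2.06-fold in the control and 2.42-fold in the input. This bin is outside the Pxn gene body and differs from the peak on the other side of the gene, where the knockout, the control and the input were not called.

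Next to the Micu2 peak, 3 kb farther from the gene (chromosome 14, 57912001 to 57913000), the knockout had its highest density of the window outside the peak, 3.27 (2.68 to 3.95), which was 2.07-fold over local background. The control had its own there as well, 2.65 (2.15 to 3.25) and 1.45-fold, and the intervals of both libraries overlap. Anti-FLAG in Cas9 and RGM had 3.96 and 3.46 there, and wild-type anti-GZF1 2.04 and 2.09.

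The peak bin of Sirt4 and Pxn overlaps Gm24407 (115490254 to 115490394), annotated as a small nuclear RNA gene, and a second such gene, Gm24265, lies 402 bp before the bin. Small nuclear RNA genes have many near-identical copies, and how reads with several matches were placed is not given in the sources used here. The neighbourhoods of the other 3 peaks list no such gene within 20 kb.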
